A study of Canis lupus familiaris with 7 samples.

Results

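The chemokine ligands and the chemokine receptors of the left ventricle were compared between dogs on a low salt diet and control dogs. The members are all probe sets of the array whose only gene symbol in the platform annotation is a numbered CCL or CXCL ligand, a CX3C or XC family member, or a numbered CCR or CXCR receptor. This gave 57 probe sets of 39 genes, among 42924 probe sets and 15115 named genes in all. The ligands account for 43 probe sets of 27 genes, and the receptors for 14 probe sets of 12 genes. The rule for members uses gene symbols and no measured value.

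RNA came from left ventricles of grown male mongrel dogs, with 3 control arrays and 4 arrays of dogs that ate a diet holding 0.5% sodium chloride for 2 weeks. The labels do not give the salt content of the control diet. The design text speaks of 10 dogs on low salt but of 4 in the comparison, and nothing says outright that each array is a separate animal, so the p-values measure only the spread between these samples, which may be technical. Control replicates are numbered 1, 3 and 4 and low-salt replicates 1 to 4, after the sample titles.

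Chemokines are small secreted proteins that steer leukocytes along concentration gradients. They bind G protein-coupled receptors on the leukocyte, and most also bind heparan sulfate on the endothelium, which holds them in place. Homeostatic chemokines such as CXCL12, CCL19 and CCL21 direct the normal traffic of progenitors, T cells and dendritic cells, whereas inflammatory chemokines such as CCL2, CCL3 and CXCL8 are induced by NF-kB and cytokines and recruit monocytes and neutrophils. In the heart, CCL2 and its receptor CCR2 are known for bringing monocytes into stressed myocardium, and CXCL12 is made by stromal and endothelial cells. The ventricle is bulk tissue, so fewer cells of a type and less RNA per cell cannot be told apart in any value given here.

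The tissue label was checked against its markers: all 10 cardiomyocyte genes of a marker list were bright enough to be tested. On the brightest probe set of each, changes lay between -0.15 and 0.25 on the log2 scale. Other tested probe sets of these genes ran from -0.86 (MYH7) to 0.57 (TTN). Atrial markers were measured too: of MYL7, MYL4 and BMP10, the deposited intensity of MYL4 ran from 96.5 to 3616 over the arrays, with a change of -2.14 (limma adjusted p = 0.258) and -1.69 on its second probe set, and that of MYL7 from 2206 to 5340. Their part in the results was not tested. Each array had been scaled by the authors to a 2% trimmed mean of 150 to 150.1. The array medians nevertheless ran from 31.5 to 51.3 in controls and from 19.3 to 44.2 in low salt, with low-salt 1, 2 and 4 under every control. Values were therefore also quantile normalized, and a change is low salt minus control on the normalized log2(intensity + 16) scale. Of 28616 probe sets tested with limma, 99 passed an adjusted p of 0.05, which is 0.346%. That number was 21 without control 1, 40 without control 3 and 261 without control 4. It was 24, 26, 91 and 22 without low-salt 1, 2, 3 and 4. The GAPDH 3′ to 5′ signal ratio, a measure of RNA integrity, was 2.58 ± 0.18 on control arrays and 2.27 ± 0.17 on low-salt arrays (mean ± SD, n = 3 and 4) (exact two-sided permutation p = 0.0571, the smallest this design can give). On a second pair of GAPDH probe sets the ratio was far higher. It was 29.3 ± 10.0 on control arrays, with 40.9 on control 1, and 17.7 ± 3.5 on low-salt arrays (exact two-sided permutation p = 0.0571). The part of either ratio in the results was not tested.

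No chemokine ligand or receptor passed the test. Among the 29 member probe sets bright enough to be tested, the limma adjusted p ran from 0.317 to 0.982, and 0 passed 0.05, against 0.346% of all tested probe sets. At an unadjusted p under 0.05, CCL19 was higher and CCL3 was lower, so 1 of 29 each way against 5.27% higher and 5.78% lower among all tested probe sets. The methods' t-test, run on the same values, gave 2 members at an unadjusted p under 0.05, both higher (4.96% of all tested probe sets were), and 0 after Benjamini-Hochberg adjustment. A change of 2-fold with an unadjusted p of at most 0.05, which is the authors' threshold, was met by 1 member, CCL19, in limma (4.40% of all tested probe sets), which was bright enough to be tested only through the low-salt arrays, and by 1 member in the methods' t-test (3.04%).

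The groups are described by their counts and medians, without a test. The median change of the 25 tested ligand probe sets was 0.16, with 16 above 0 and 9 below. Among those above 0, CCL19, CCL27 and CXCL13 were bright enough to be tested only through the low-salt arrays. With 1 array left out the ligand median stayed between 0.11 and 0.16, except at -0.010 without control 4 and 0.054 without low-salt 3, and as deposited it was -0.26. The 4 tested receptor probe sets had a median of 0.16, with 3 above 0 and 1 below, and a range from -0.14 without control 1 to 0.35 without control 4. Over all 28616 tested probe sets the median was 0.04, the middle 50% ran from -0.25 to 0.31, and 53.8% were above 0. The 2 groups of arrays did not overlap in 3 of the 29 members (CCL14 and CCL19 higher, CCL3 lower), against 10.8% of all tested probe sets (5.13% higher, 5.68% lower). Of the 29 changes, 28 were smaller than 2-fold.

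**Figure D1:**
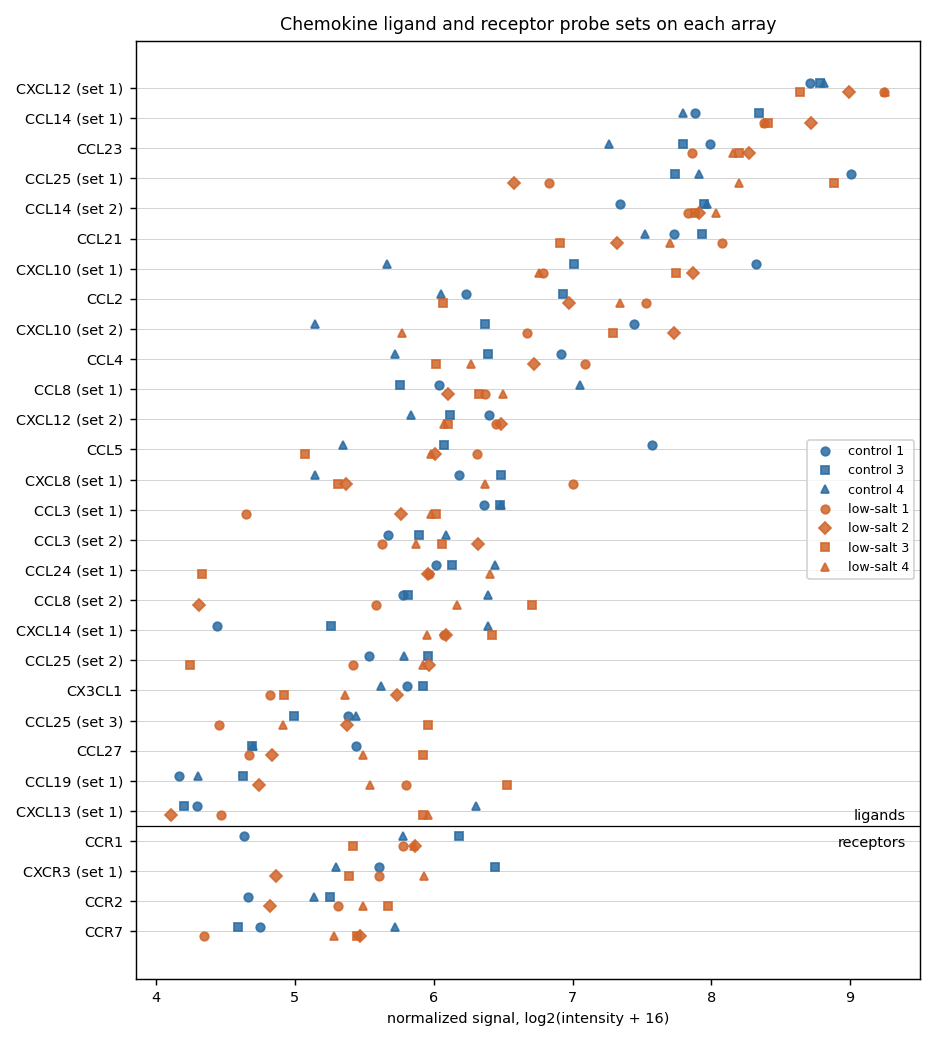
Normalized signal, log2(intensity + 16), of each of the 29 tested member probe sets on each of the 7 arrays, controls in blue and low salt in orange, with the replicate shown by the marker. The 2 colours overlap on 26 of the 29 lines, the exceptions being CCL14 (set 1), CCL19 (set 1) and CCL3 (set 1). Set 1 is the brightest probe set of a gene.

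Signal was low for most of the family, and that sets what could be seen. The median deposited intensity over the 7 arrays was under 100 in 22 of the 29 tested probe sets, and ran from 4.29 to 430. The other 28 member probe sets, 18 of ligands and 10 of receptors, fell among the dimmest 33.3% of the array by mean normalized signal, with medians of 1.29 to 17.4, and were not tested. Here 17 genes had no tested probe set, 9 ligands and 8 receptors. Just inside that limit, a mean of 5.004, stood CXCL13 at 5.03, CCR7 at 5.09 and CCL19 at 5.10, and just outside stood CCR3, CCL17 and CCL20, each at 4.99. The 95% confidence interval of a tested change reached from 0.45 to 1.29 to either side, with a median of 0.84. It lay wholly within 2-fold for 10 probe sets and reached a 2-fold change for 19. For most members a 2-fold change was therefore not excluded at this precision.

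**Figure D2:**
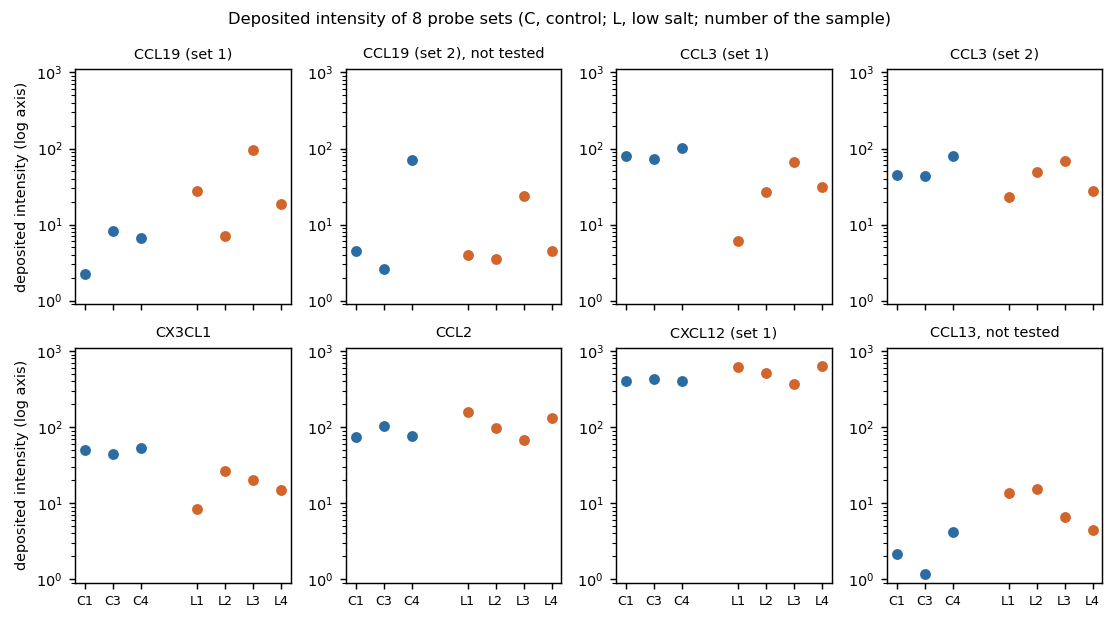
Deposited intensity, on a log axis, of selected ligand probe sets on each of the 7 arrays. Shown are both probe sets of CCL19 and of CCL3, the brighter of CXCL12, and those of CX3CL1, CCL2 and CCL13. For CCL19 (set 1) the low-salt points reach from 7.02 to 95.2 and overlap the controls, and for CCL3 (set 1) they reach from 6.16 to 66.2 and lie under the lowest control at 72.3.

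Homeostatic ligands come first. CXCL12, the stromal ligand of CXCR4 and of the scavenger receptor ACKR3, had a deposited intensity of 400, 430 and 400 in controls 1, 3 and 4, and of 622, 519, 370 and 639 in low-salt 1 to 4. Low-salt 3 lay under all controls and the other low-salt arrays lay above them, so the groups overlapped. The normalized level was 8.77 ± 0.05 on control arrays and 9.03 ± 0.29 on low-salt arrays (mean ± SD, n = 3 and 4), a change of 0.26 ± 0.21 (SE) with a 95% confidence interval of -0.19 to 0.72 (limma adjusted p = 0.678). That interval lies within a 2-fold change in either direction. A dimmer second CXCL12 probe set gave 83.0, 52.9 and 64.9 in controls and 56.4, 59.1, 70.8 and 34.5 in low salt, a change of 0.16 (adjusted p = 0.887, limma).

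CCL19, a ligand of CCR7 that guides T cells and dendritic cells in lymphoid tissue, was the only tested member with a change of at least 2-fold. On its brighter probe set (set 1) the deposited intensity was 2.26, 8.16 and 6.59 in controls 1, 3 and 4, and 28.0, 7.02, 95.2 and 18.7 in low-salt 1 to 4. Low-salt 1, 3 and 4 stood above all controls, while low-salt 2 lay between controls 4 and 3. After normalization the groups no longer overlapped, but low-salt 2 at 4.74 was close to control 3 at 4.62. The change was 1.29 ± 0.44 (SE), with 4.36 ± 0.24 on control arrays and 5.65 ± 0.74 on low-salt arrays (mean ± SD, n = 3 and 4), with an interval of 0.35 to 2.23 and a limma adjusted p of 0.317. The control mean lies under the limit for testing (5.004), so this probe set was tested only through its low-salt signal. Kept in a fit without that limit, it had an unadjusted p of 0.0101 and an adjusted p of 0.392 in limma. Against so faint a control signal the size depends on the offset: the change was 2.72 with an offset of 1 and 0.56 with an offset of 64, the latter under 2-fold.

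The second CCL19 probe set did not show this difference. It was too dim to be tested, with 4.5, 2.59 and 70.7 in controls and 3.98, 3.53, 23.5 and 4.48 in low salt, a change of -0.20. Control 4 and low-salt 3 were the high arrays there, 1 from each group. CCL21, the other CCR7 ligand and a marker of lymphatic endothelium, had 209, 230 and 179 in controls and 251, 134, 120 and 182 in low salt. Those groups overlapped, and the change of -0.23 had a limma adjusted p of 0.821. With array medians set equal it was 0.15, so its direction depends on the scaling.

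CCL25, known for drawing lymphocytes to thymus and gut through CCR9, has 3 tested probe sets, and all 3 had a change below 0. On the brightest the intensity was 491, 198 and 227 in controls and 83.9, 65.3, 435 and 273 in low salt. Low-salt 1 and 2 were low while low-salt 3 and 4 lay in the range of the controls. The change was -0.60 ± 0.49 (SE), with an interval of -1.65 to 0.46 (limma adjusted p = 0.688). Set 2 gave 38.3, 46.0 and 62.5 against 18.4, 33.7, 4.66 and 29.0, a change of -0.37, and set 3 gave 32.4, 15.9 and 45.4 against 3.82, 17.2, 63.3 and 8.26, a change of -0.10. Low-salt 3 was the highest low-salt array on CCL25 sets 1 and 3 and the lowest on set 2.

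CCL27, a skin-associated T cell attractant, changed by 0.28 (limma adjusted p = 0.845) and was highest on low-salt 3. CXCL13, which draws B cells, changed by 0.18 on a probe set that ran from 0.66 to 90.9 with high and low arrays in both groups. Control means of CCL27 (4.94) and CXCL13 (4.93) are under the limit for testing (5.004), so they were tested only through low-salt signal. CXCL14, a constitutively made ligand of epithelia and stroma, had 6.64, 22.4 and 95.5 in controls and 38.0, 38.3, 88.8 and 30.0 in low salt. The controls alone spanned the whole low-salt range. Its change was 0.77 ± 0.42 (SE), with an interval of -0.12 to 1.67 (limma adjusted p = 0.526), and its dim second probe set changed by 0.57. Without control 4 the CXCL14 change was 1.29 with an adjusted p of 0.154, the lowest of any member under any setting tried. With any 1 array left out its change ran from 0.31 to 1.29.

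Inflammatory ligands of the MIP-1 and RANTES group attract monocytes and T cells. CCL3, also called MIP-1 alpha, had 81.0, 72.3 and 101 in controls and 6.16, 27.1, 66.2 and 30.9 in low salt on its brighter probe set (set 1). Every low-salt array was under every control, on the deposited and on the normalized scale, and low-salt 1 was far under the rest. The normalized level was 6.44 ± 0.07 on control arrays against 5.60 ± 0.65 on low-salt arrays (mean ± SD, n = 3 and 4), a change of -0.84 ± 0.37 (SE) with an interval of -1.63 to -0.05 (limma adjusted p = 0.426). Its unadjusted p was 0.0389, and leaving out 1 array moved the change between -0.98 and -0.52.

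A second CCL3 probe set (set 2) was also bright enough to be tested and did not share the difference. Its intensity was 44.2, 43.5 and 79.0 in controls and 23.2, 49.5, 68.2 and 27.4 in low salt. Low-salt 1 and 4 were under all controls and low-salt 2 and 3 were among them. The normalized change was 0.08 ± 0.31 (SE), with an interval of -0.59 to 0.75 (limma adjusted p = 0.950), and it was -0.34 with values as deposited. The name of the first probe set ends in _s_at, which marks probes that may match more than 1 transcript; so do the names of 25 of the 57 members, and such probe sets are uncertain where near-identical genes exist, as in the CCL3 and CCL4 cluster.

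CCL4, or MIP-1 beta, changed by 0.18 (limma adjusted p = 0.897), with 119, 67.4 and 59.2 in controls and 107, 75.8, 66.2 and 42.8 in low salt. CCL5, or RANTES, had 185, 51.2 and 40.9 in controls and 48.5, 35.2, 25.0 and 30.8 in low salt. Control 1 stood apart there: the CCL5 change of -0.49 became 0.13 without it. CCL14, a ligand of CCR1 that circulates in plasma, had 232, 311 and 211 in controls and 324, 417, 317 and 322 in low salt on its brightest probe set. All low-salt arrays were above all controls, with low-salt 2 the highest and control 3 just under low-salt 3.

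The CCL14 change was 0.46 ± 0.23 (SE), with 8.01 ± 0.29 on control arrays and 8.47 ± 0.16 on low-salt arrays (mean ± SD, n = 3 and 4), with an interval of -0.02 to 0.95 (limma adjusted p = 0.479). Its second probe set had 159, 232 and 235 against 206, 222, 222 and 239, overlapping groups and a change of 0.16 (adjusted p = 0.848, limma). CCL23, another CCR1 ligand, had 250, 207 and 155 in controls and 210, 296, 274 and 263 in low salt. Low-salt 2, 3 and 4 were above all controls and low-salt 1 was not. The CCL23 change was 0.44 ± 0.25 (SE), with an interval of -0.10 to 0.97 (limma adjusted p = 0.551).

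The monocyte chemoattractants bind CCR2. CCL2, the principal one, had 73.4, 105 and 76.7 in controls and 160, 96.9, 68.8 and 133 in low salt. Low-salt 1 and 4 were above all controls, low-salt 3 was below all of them, and low-salt 2 was among them. The CCL2 change was 0.57 ± 0.37 (SE), with 6.41 ± 0.47 on control arrays and 6.98 ± 0.65 on low-salt arrays (mean ± SD, n = 3 and 4), with an interval of -0.22 to 1.37 (limma adjusted p = 0.602). It stayed between 0.39 and 0.88 when any 1 array was left out, so no single array turned its sign. CCL8 had 2 tested probe sets with changes of 0.04 and -0.30, and CCL7 and CCL13 were dim.

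CCL13 and CCL1 are the untested ligands whose normalized groups did not overlap. CCL13 had 2.13, 1.16 and 4.25 in controls and 13.6, 15.3, 6.54 and 4.47 in low salt. All of the low-salt arrays were above the controls, low-salt 4 by little. Its change was 0.69, and when dim probe sets were kept in the fit its limma adjusted p was 0.428. CCL1 had 2.86, 1.17 and 4.63 against 15.3, 2.58, 8.31 and 1.63, overlapping as deposited, with a change of 0.40 (adjusted p = 0.616 in the same unfiltered limma fit). Of all untested dim probe sets 8.13% had groups that did not overlap (3.84% higher), against 2 of 28 members, both higher. Over those 28 the changes ran from -0.56 to 0.71, with 14 above 0.

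CX3CL1, or fractalkine, is made by endothelium as a membrane-bound adhesion ligand that can be shed. Its intensity was 50.3, 44.4 and 53.7 in controls and 8.39, 26.1, 20.4 and 15.1 in low salt. As deposited, every low-salt array was under every control. After quantile normalization low-salt 2, at 5.73, lay above control 4, at 5.62, and the groups overlapped. The normalized change was -0.57 ± 0.35 (SE), with 5.78 ± 0.15 on control arrays and 5.21 ± 0.42 on low-salt arrays (mean ± SD, n = 3 and 4), with an interval of -1.33 to 0.18 (limma adjusted p = 0.582). Leaving out 1 array at a time kept it between -0.75 and -0.44.

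CXCL8, or interleukin 8, the main neutrophil attractant, had 70.6, 72.4 and 32.4 in controls and 97.9, 17.1, 33.5 and 47.8 in low salt. High and low arrays were found in both groups. The CXCL8 change was 0.07 ± 0.46 (SE), with an interval of -0.91 to 1.06 (limma adjusted p = 0.974), and 2 dim probe sets of the gene changed by -0.10 and 0.06. CXCL10, an interferon-induced ligand of CXCR3, had 308, 111 and 56.0 in controls and 80.8, 215, 203 and 72.6 in low salt, and its second probe set had 170, 65.9 and 32.4 against 71.8, 191, 153 and 24.4. Both put control 1, low-salt 2 and low-salt 3 at the high end. Their changes were 0.29 and 0.55 (limma adjusted p = 0.876 and 0.736). CCL24, an eosinophil attractant that binds CCR3, changed by -0.53 (limma adjusted p = 0.693) and its dim second probe set by 0.71.

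**Figure D3:**
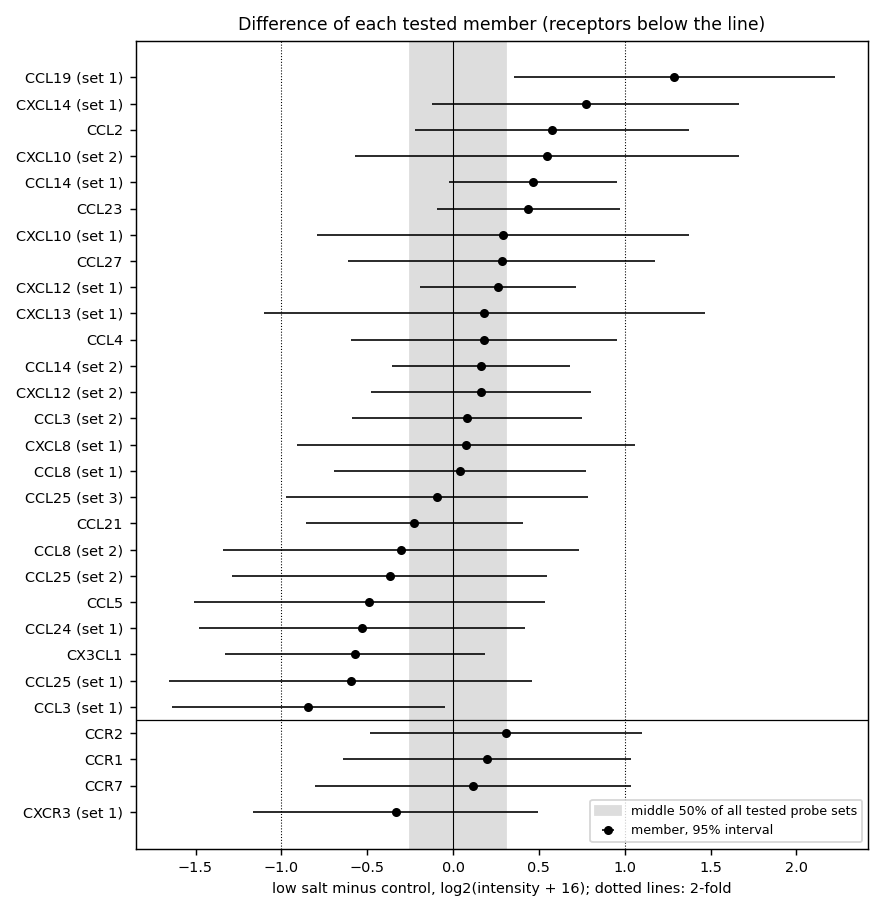
Change, low salt minus control on the log2(intensity + 16) scale, of the 29 tested member probe sets, with the 95% confidence interval of the limma fit as a bar. The intervals of CCL19 (0.35 to 2.23) and of CCL3 set 1 (-1.63 to -0.05) leave out 0 before adjustment, and the other 27 include it.

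Receptor signal was faint throughout, and 4 of the 12 receptor genes had a tested probe set. CCR1, the receptor of CCL3, CCL14 and CCL23 on monocytes, had 10.3, 56.0 and 62.2 in controls and 27.6, 30.0, 37.8 and 27.0 in low salt. All low-salt arrays fell between the lowest and the highest control. The CCR1 change was 0.20 ± 0.39 (SE), with an interval of -0.64 to 1.04 (limma adjusted p = 0.894). CCR2, the CCL2 receptor of inflammatory monocytes, had 10.8, 22.2 and 32.2 in controls and 16.2, 8.13, 48.8 and 17.7 in low salt. Its groups overlapped, with a change of 0.31 ± 0.37 (SE) and an interval of -0.48 to 1.10 (limma adjusted p = 0.802).

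CCR7, which guides T cells and mature dendritic cells, had 12.8, 7.65 and 58.9 in controls and 2.72, 19.1, 38.9 and 13.6 in low salt. Control 4 and low-salt 3 were the high arrays, as they were on the dim CCL19 probe set, and the change was 0.11 ± 0.43 (SE), with an interval of -0.81 to 1.03 (limma adjusted p = 0.949). CXCR3, found on activated T cells and NK cells, had 41.5, 70.1 and 38.6 in controls and 22.7, 8.75, 36.5 and 29.3 in low salt. As deposited each low-salt array was under each control, while after normalization low-salt 1, 3 and 4 lay among the controls. The CXCR3 change was -0.33 ± 0.39 (SE), with an interval of -1.16 to 0.50 (limma adjusted p = 0.794), and its dim second probe set changed by -0.37. Without control 3 the CXCR3 change was -0.0030. All 4 receptor intervals reached a 2-fold change. The 10 untested receptor probe sets, of CCR3, CCR4, CCR6, CCR8, CCR9, CXCR3, CXCR5, CXCR6 and XCR1, changed by -0.37 to 0.54, with 3 above 0 and no separation of the groups.

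Ligand and receptor could be set side by side for few pairs. Of 27 known pairs in a list that is not complete, both partners were tested in 7. CCL2 and CCR2 changed by 0.57 and 0.31, and CCL8, which shares CCR2, by 0.04 on its brighter probe set. CCL19 and CCL21 changed by 1.29 and -0.23 beside 0.11 for their receptor CCR7. CCL3 changed by -0.84 on set 1 and 0.08 on set 2, beside 0.20 for CCR1. CCL14 (set 1) and CCL23, CCR1 ligands outside the list of pairs, changed by 0.46 and 0.44. CXCL10 changed by 0.29 beside -0.33 for CXCR3, and CXCL12 by 0.26 beside -0.29 for ACKR3. None of these partners passed the test. CXCR4, CX3CR1, CXCR1 and CXCR2 were not analysed here; 1 probe set annotated to CXCR1 and CXCR2 together was left out by the rule of a single symbol.

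Many genes of the family lie next to each other in the genome. In the gene order of the dog assembly UU_Cfam_GSD_1.0, CCL4, CCL3, CCL23, CCL14, CCL16 and CCL5 form 1 cluster with at most 5 genes between neighbours, and their 7 tested probe sets changed by -0.84 to 0.46, with 5 above 0. CCL1, CCL13, CCL8, CCL7 and CCL2 form another, with 3 tested probe sets at -0.30, 0.04 and 0.57. CCL27, CCL19 and CCL21 also adjoin, at 0.28, 1.29 and -0.23. Neighbours thus had changes of both signs in each of these clusters. The receptors CCR2, CCR3, CCR1, XCR1, CXCR6 and CCR9 lie together as well, and their 2 tested members, CCR1 and CCR2, changed by 0.20 and 0.31.

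Probe sets of 1 gene often disagreed. Of 16 genes with several probe sets, dim ones included, 7 had changes of 1 sign (CCL14, CCL25, CXCL10, CXCL12, CXCL13, CXCL14 and CXCR3) and 9 had changes of both signs. Among the 6 genes with several tested probe sets, CCL3 and CCL8 had both signs. The 2 members with the smallest p, CCL19 and CCL3, are both among the 9.

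The sign of many members also depended on how the arrays were scaled. With values as deposited, where low-salt arrays have lower medians, 30 member probe sets were tested and 9 were above 0 and 21 below, against 19 and 10 after quantile normalization. The median of the members was then -0.22 and that of all tested probe sets -0.18. Sign turned in 10 of the 29: CCL27, CCL3 set 2, CCL4, CCL8 set 1, CXCL12 set 2, CXCL13, CXCL8, CCR1, CCR2 and CCR7. As deposited, groups did not overlap in 1 member that was higher, CCL14, and in 5 that were lower (CCL3, CX3CL1, CXCR3, CCL24 and the second CCL25 probe set), against 2.87% and 9.78% of all tested probe sets (12.7% together). With array medians set equal, 20 were above 0 and 10 below, with a median of 0.21 for members and 0.26 for all tested probe sets. Higher under all 3 scalings were the tested sets of CCL19, CCL2, CCL14, CCL23, CXCL14 and CXCL10, and CXCL12 set 1. Lower under all 3 were CCL3 set 1, CCL8 set 2 and the tested sets of CX3CL1, CXCR3, CCL24, CCL5 and CCL25. None was past an adjusted p of 0.05.

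**Figure D4:**
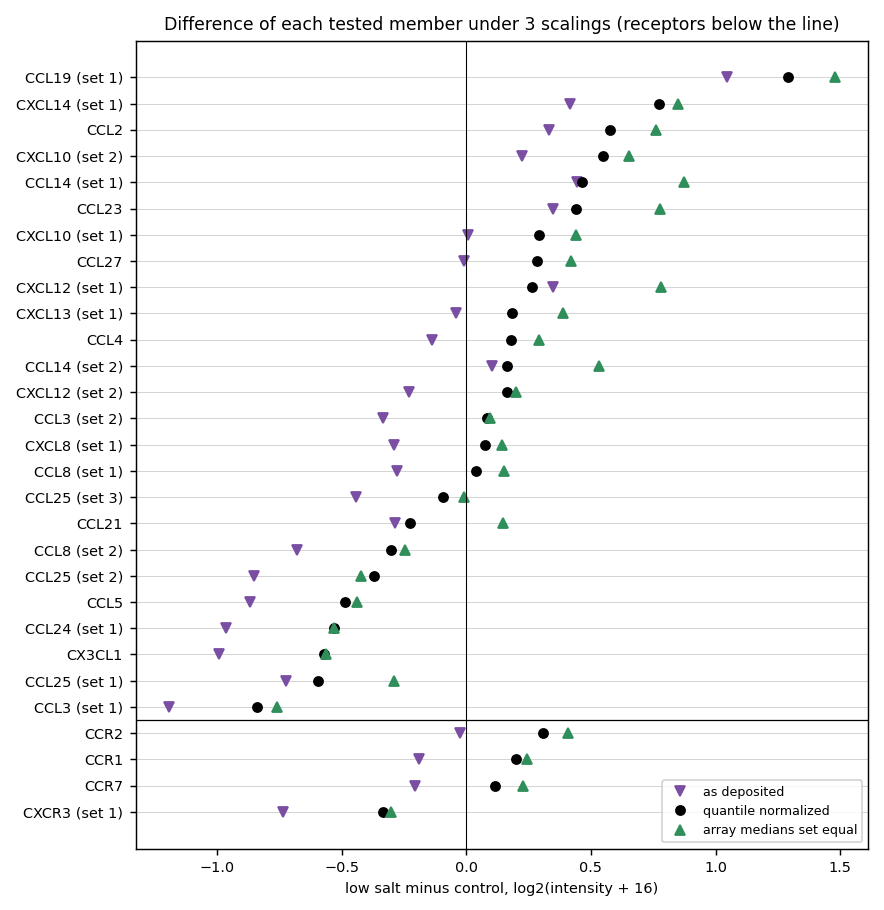
Change, low salt minus control on a log2(intensity + 16) scale, of the tested member probe sets under quantile normalization, values as deposited and array medians set equal. The member median moves from 0.16 to -0.22 and 0.21, and the median of all tested probe sets from 0.04 to -0.18 and 0.26.

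Genes that work with the chemokines were read from lists chosen by function, 1 probe set per gene. For such gene-level values the median over all 11381 genes was 0.05, with 5.57% higher and 4.89% lower at an unadjusted p under 0.05 and 0.281% past an adjusted p of 0.05. Of the 17 tested genes (28 listed) of NF-kB and the cytokines that induce chemokines, 1 passed, 4 were higher and 1 lower at an unadjusted p under 0.05, and the median was 0.08. The gene that passed is NFKBIA, the inhibitor that holds NF-kB in the cytoplasm and is itself induced by it. Its deposited intensity was 13.8, 22.3 and 26.0 in controls and 128, 104, 82.9 and 83.0 in low salt. All low-salt arrays were well above all controls, and NFKBIA rose by 1.88 ± 0.32 (SE; limma adjusted p = 0.0296). That call was lost in 9 of 17 other settings (adjusted p from 0.0042 to 0.294 over all 17), among them without control 1 or 3 and without low-salt 1, 2 or 4. The NFKBIA change ran from 1.06 to 2.64 over these settings. Its control mean of 5.009 was barely above the limit for testing (5.004).

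IL6, an inflammatory cytokine, had 4.97, 3.28 and 33.6 in controls and 26.9, 26.2, 57.0 and 17.5 in low salt. Control 4 lay above 3 of the low-salt arrays as deposited, and the normalized groups did not overlap, with a change of 1.10 ± 0.36 (SE; limma adjusted p = 0.301). Its control mean of 4.60 is under the limit for testing, so it too was tested only through its low-salt signal, and without that limit its adjusted p in limma was 0.396. TNF, another inducer, changed by -2.19 ± 0.64 (SE; limma adjusted p = 0.246), with 2 dim probe sets at 0.80 and 0.04. TNF had 384, 80.9 and 124 in controls and 7.12, 5.18, 143 and 1.68 in low salt, so low-salt 3 lay among the controls, and without that array its adjusted p was 0.0256. TLR4, a receptor for bacterial lipopolysaccharide, changed by 0.72 ± 0.27 (SE; limma adjusted p = 0.356) with other probe sets at -0.97 and 1.15. The 9 tested interferon-side genes (12 listed) had a median of 0.01 and 0 at an unadjusted p under 0.05, the smallest p being those of JAK1 (0.32, with other probe sets at -0.54, -0.14, 0.16 and 0.28) and IRF1 (-0.54, with others at -0.37 and 0.59, the last one dim). With 1 array left out, the median of the NF-kB list ran from -0.11 to 0.28 and that of the interferon list from -0.29 to 0.22, each lowest without control 4.

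Adhesion molecules act before and after the chemokine signal: selectins let leukocytes roll on the endothelium, and integrins and their ligands then hold them until they cross it. Of 16 tested (20 listed), 2 were higher and 1 lower at an unadjusted p under 0.05, 0 passed, and the median was 0.26, or -0.05 without control 1. SELE, the endothelial selectin induced by cytokines, had 45.3, 38.0 and 54.1 in controls and 378, 70.3, 68.4 and 109 in low salt. Every low-salt array was higher, low-salt 1 by far, with a change of 1.42 ± 0.47 (SE; limma adjusted p = 0.301) and 0.08 on a dim second probe set. VCAM1, a ligand for leukocyte integrins, changed by 0.46 ± 0.17 (SE; limma adjusted p = 0.358), and by 0.82 on its other probe set. CD99, which takes part in transmigration, changed by -0.79 ± 0.19 (SE; limma adjusted p = 0.132), with 3 further CD99 probe sets between -0.13 and 0.10. The adjusted p of CD99 was 0.0469 without low-salt 3 and up to 0.807 over the other settings, and with array medians set equal its change was -0.19.

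The remaining lists had no gene past the adjusted threshold. The 3 tested atypical receptors (7 listed), which scavenge chemokines without G protein signalling, had a median of -0.29. In that list ACKR2 changed by -0.42 and ACKR3 by -0.29, and ACKR3 turned to 0.28 with array medians set equal. The 5 tested chemokine-like ligands and MIF family genes (10 listed) had a median of 0.73, with 2 higher at an unadjusted p under 0.05. These were CD74, the MIF receptor and invariant chain, at 0.98 ± 0.36 (SE; limma adjusted p = 0.342), and the MIF homologue DDT at 0.67 ± 0.27 (SE; limma adjusted p = 0.380). The other CD74 probe sets changed by 0.82 and 1.18, the other DDT probe set by 0.08, and DDT by 0.33 without control 4. Signal transduction genes had a median of -0.09 over 29 tested (40 listed). Among them GRK2, a kinase that desensitises receptors, was at 1.18 ± 0.41 (SE; limma adjusted p = 0.330) on its brightest probe set. Other GRK2 probe sets were at 0.12 and -0.43, the last one dim. LYN was at 0.86, and at 0.20 on its other probe set. Genes that cleave or present chemokines had a median of -0.14 over 14 tested (21 listed). Among these MMP3 changed by -0.92 and SDC1, a heparan sulfate proteoglycan, by -1.15 (limma adjusted p = 0.392 and 0.408). The low-salt means of MMP3 (4.78) and SDC1 (4.73) are under the limit for testing, so both were tested only through their control signal.

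**Figure D5:**
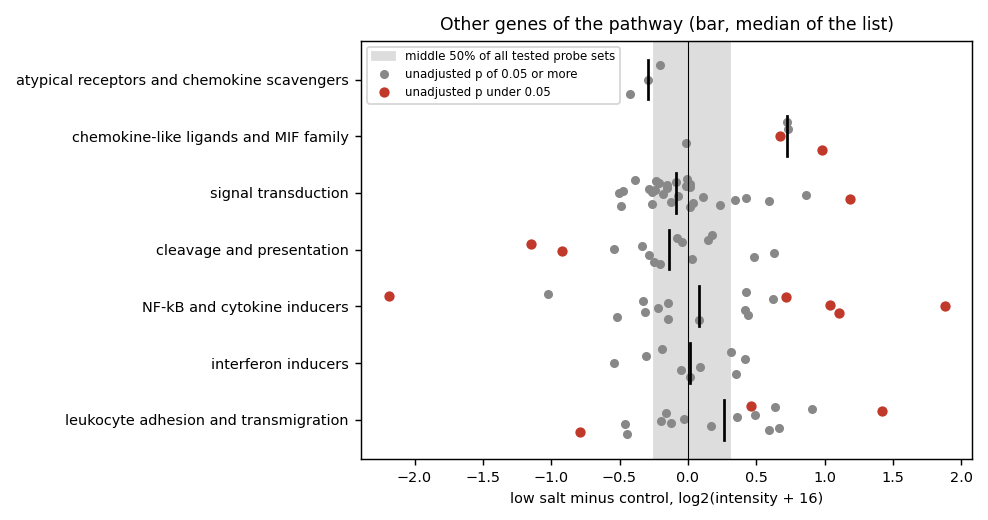
Change, low salt minus control on the log2(intensity + 16) scale, of the tested genes of the 7 pathway lists, 1 probe set per gene, with a bar at the median of each list and genes of unadjusted p under 0.05 in red. The grey band is the middle 50% of all tested probe sets, -0.25 to 0.31, drawn for single probe sets and not as a measure for medians. List medians run from -0.29 for the atypical receptors to 0.73 for the 5 chemokine-like genes.

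Marker levels of the leukocytes that chemokines attract are given beside these values, and their part in the results was not tested. The 14 macrophage and monocyte markers were all tested, with 13 changes above 0, of which 4 had an unadjusted p under 0.05 and 0 an adjusted one, where 56.0% of all genes were above 0. As deposited, 9 of the 14 were above 0, where 35.6% of all tested probe sets were. Their summed deposited intensity was 3366 to 5426 in controls and 4463 to 5383 in low salt, so the sums overlapped. Of 10 T cell markers 7 were tested, with sums of 405 to 837 in controls and 125 to 368 in low salt as deposited. CD4 changed by -1.95 (limma adjusted p = 0.121) on its brightest probe set and by 0.06 on another, and the other 6 by -0.32 to 0.12. After normalization the T cell sums overlapped, at 333 to 766 and 206 to 464, and CD8B, CD5 and TRAT1 were too dim to be tested. Neutrophil sums were 233 to 765 and 239 to 900, with MPO, ELANE, LTF and PADI4 too dim to be tested. NK cell markers NCR1, GZMA and PRF1 and B cell markers MS4A1, CD79A, CD79B and BANK1 were also too dim to be tested. The tested NK cell markers were KLRD1 (-0.66), GZMB (0.15) and NKG7 (0.28). Dim further probe sets changed by 0.43 for GZMB and by 0.49 and -1.46 for NKG7. Those tested for B and plasma cells were PAX5 (-0.34) and JCHAIN (-0.45, limma adjusted p = 0.394, with other probe sets at -0.60). Further PAX5 probe sets changed by -0.48 and 0.39, and dim ones by 0.12 and 0.35. After normalization JCHAIN was lower on every low-salt array than on every control. The 6 mast cell markers summed to 499 to 746 in controls and 261 to 433 in low salt, and to 368 to 747 and 318 to 490 after normalization, with 2 lower at an unadjusted p under 0.05.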

How the data were processed

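Biotin-labelled total RNA was put on 1-colour canine arrays of Affymetrix, as the labels' protocols state. The authors deposited linear intensity values for each probe set, made with GCOS per the submitters' processing notes. The version, the probe summary and the annotation build are all not given in the sources used here. In its design text the series names a t-test with variance stabilization, and a threshold of 0.05 for the unadjusted p with a 2-fold change.

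Each intensity was turned into log2(intensity + 16) after 111 control probe sets were dropped, and the 7 arrays were quantile normalized. The dimmest 33.3%, by the mean over all arrays, were not tested. For the other 28616, low salt was compared with control in limma 3.58.1 (lmFit, then eBayes with its trend option; R 4.3.3), without covariates. Benjamini-Hochberg adjustment ran over all of them. The offset of 16 shrinks the changes of dim probe sets. The number of arrays limits the precision, and the fit was tested on simulated data. Probe sets were ranked by level for the filter and the choice of genes, and their intensities were summed in the marker lists. Differences in level between probe sets were not tested.

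Names come from the platform annotation, only where it gives 1 symbol, and all 39 member genes were found in the gene table of UU_Cfam_GSD_1.0, used for names and gene order. Members and lists were chosen with earlier results of these data known. Given on every array by rule were members with an unadjusted p under 0.05, the 4 ligand and 4 receptor genes of highest signal, and 4 ligand and receptor pairs, with further probe sets of those genes. Other members given so (CXCL14, CCL5, CXCL10, CCL4, CCL21, CCL13 and CCL1) were chosen after their values were seen. From each list the 2 to 4 genes of smallest p were named, with the brightest probe set for each gene. No sequences are shown. Alternatives were other offsets, scalings and filters, array weights, no trend, a replicate block, the methods' t-test and leaving out each array.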

Additional observations from a re-analysis of the deposited data

Results flagged for a closer look

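In the low-salt group 2 of the 29 tested members had a single array set apart from the other 3. The limit used is one that chance passes in about 1 in 20 groups, so this number is near the chance rate. CCL14 (set 1) stood at 8.72 on low-salt 2, with the nearest low-salt array at 8.41, a gap of 0.92 of the group's range. CCR7 stood at 4.35 on low-salt 1, with the nearest at 5.28, a gap of 0.835 of the range. Both are normalized log2(intensity + 16) values, and leaving out the array in question did not bring either probe set past an adjusted p of 0.05 in limma.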

How the results depend on the processing

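In no setting tried did a member pass an adjusted p of 0.05 in limma. Of the 29 tested member probe sets, 17 kept their sign under every setting that used all arrays or the replicate block, 15 when any 1 array was left out, and 11 under all 17 settings. The number of all probe sets past the threshold, 99, was 39 with an offset of 1, 165 as deposited, 27 without the filter, 177 with array weights, 19 without the trend and 4 in the methods' t-test after adjustment, and 21 to 261 with 1 array left out. Ligands higher at an unadjusted p under 0.05 were 1 of 25 in the main fit and 0 of 26 as deposited. They were 4 of 26 with medians equal, 3 of 43 without the filter and 0 of 21 above the median. With array weights and in the methods' t-test they were 2 of 25 each, and 1 to 2 with 1 array left out. Ligands lower were 1 of 25 in the main fit, 0 of 26 with an offset of 1, and 3 of 26 as deposited. They were 0 of 43 without the filter, 0 of 25 in the methods' t-test and 0 to 2 with 1 array left out. Of all tested probe sets, 13.6% had an unadjusted p under 0.05 as deposited (10.9% lower). With medians equal 13.7% had one (3.81% lower). In the main fit 5.27% were higher and 5.78% lower, and in the methods' t-test 4.96% were higher. No such share is given for the remaining settings.

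The sign turned as deposited for CCL27 (-0.011), CCL3 set 2 (-0.34), CCL4 (-0.14), CCL8 set 1 (-0.28), CXCL12 set 2 (-0.23), CXCL13 (-0.043), CXCL8 (-0.29), CCR1 (-0.19), CCR2 (-0.024) and CCR7 (-0.21). It turned with medians equal for CCL21 (0.15) and ACKR3 (0.28). With 1 array left out the sign was not fixed for CCL14 set 2 (-0.043 to 0.27), CCL25 set 2 (-0.56 to 0.012), CCL25 set 3 (-0.36 to 0.15), CCL3 set 2 (-0.035 to 0.20), CCL4 (-0.13 to 0.47), CCL5 (-0.98 to 0.13), CCL8 set 1 (-0.22 to 0.42), CCL8 set 2 (-0.64 to 0.16), CXCL10 (-0.37 to 0.95 and -0.040 to 1.11), CXCL13 (-0.18 to 0.87), CXCL8 (-0.32 to 0.35), CCR1 (-0.25 to 0.52) and CCR7 (-0.10 to 0.46). The cause was not tested.

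Both groups hold replicate numbers 1, 3 and 4, but same-numbered arrays did not deviate together (correlations of 0.07, -0.26 and -0.18), and 0 of 6 correlated best with its own number. With the number as a replicate block, 29 probe sets passed, 0 ligands were lower at an unadjusted p under 0.05, NFKBIA had an adjusted p of 0.294, CCL3 set 2 changed by -0.035 and CCL8 set 2 by 0.16. The limits are 7 arrays, faint signal in 28 untested members, and disagreement between probe sets of 1 gene.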
